A study of Homo sapiens with 12 samples.

Results

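The comparison described here is that of SW480 cells treated with PUE against untreated SW480 cells, 6 of the 12 RNA-sequencing libraries of a study of Gegen Qinlian Decoction, a herbal formula, and Wnt signalling. SW480 is an established line from a human colorectal adenocarcinoma. Every flask first spent 12 h in medium that held 10% serum. The untreated group (3 libraries) then had fresh medium for 12 h, and the PUE group (3 libraries) had fresh medium with PUE for 12 h. The other 6 libraries come from cells given GLY, or GLY with PUE, and the labels of GLY replicates 2 and 3 state 13 and 14 h in place of 12 h. The abbreviations are kept as the labels give them, no dose was used here, and PUE was the only labelled difference between the 2 groups. Each library carries a replicate number from 1 to 3, and PUE and untreated libraries were compared within numbers, over all 3699 genes of the deposited table. The cell line field names SW480 for every library, while the free-text descriptions carry a different SW number for each. The labels do not state whether replicates were separate cultures, and the spread on which each p-value rests may be technical.

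The 6 libraries held 19.4 to 20.04 M reads, as recovered from the table, and the listed genes took 14.04% to 15.02% of them. Levels are given in CPM, estimated counts per 1000000 reads of the library. A count of 0 allows up to 0.155 CPM at these depths, counting error only. Every listed gene had been marked by the authors in at least 1 comparison of the series, with a log2 ratio of 1 or more in size and a q-value no higher than 0.001, and 2878 of the 3699 were marked for GLY against untreated. The table is thus a selected list, and a gene outside it was not analysed here. In both groups replicate 3 stood apart from the other two. Of 20 markers of colon epithelium fixed for the check, 3 are in the table. CDX2, an intestinal transcription factor, lay between 65.5 and 86.9 CPM, and ELF3 and VIL1 were also present in all 6 libraries. Listed markers of fibroblasts (PDGFRB) and leukocytes (CD14) had means under 1 CPM in both groups, and CD68 lay between 3.85 and 6.01 CPM. The endothelial marker ENG had a mean of 0.685 CPM in untreated and 1.09 CPM in PUE libraries. It was higher in all 3 pairs (log2 fold change 0.62, 95% interval −0.04 to 1.28) and did not pass the test described below. The summed endothelial markers were 0.807 to 1.30 CPM in untreated and 1.06 to 2.27 CPM in PUE libraries. The summed leukocyte markers were 4.70 to 7.01 CPM in untreated and 5.44 to 6.08 CPM in PUE libraries, and the part of either marker set in any result was not tested.

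In canonical Wnt signalling, a secreted Wnt ligand binds a Frizzled receptor, and β-catenin (CTNNB1) then escapes the complex of APC, AXIN and kinases that marks it for degradation. β-catenin enters the nucleus and acts with TCF and LEF factors on target genes such as AXIN2, LGR5 and MYC. SW480 cells carry truncated APC, so their β-catenin signalling is high without added ligand. NRF2, described further on, is a transcription factor that is released from KEAP1 under oxidative or electrophilic stress and drives genes of glutathione and thioredoxin metabolism.

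PUE-treated and untreated cells differed little. Of 3260 genes with enough counts to test, 1 (0.0307%) passed edgeR's quasi-likelihood test with the replicate number as a block (Benjamini-Hochberg adjusted p under 0.05), and it was lower in PUE libraries. Without the block, 0 genes passed (0%), and 9 (0.276%) had an unadjusted p under 0.05. With the block, 147 genes (4.51%) had an unadjusted p under 0.05, of which 72 (2.21%) were higher and 75 (2.3%) lower in PUE libraries. The median log2 fold change over the tested genes was 0.01. In 99 genes (3.04%) the levels of the 2 groups did not overlap, 47 with PUE above and 52 below. The plot of log2 fold change against mean level shows a band that narrows as the level rises.

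**Figure D1:**
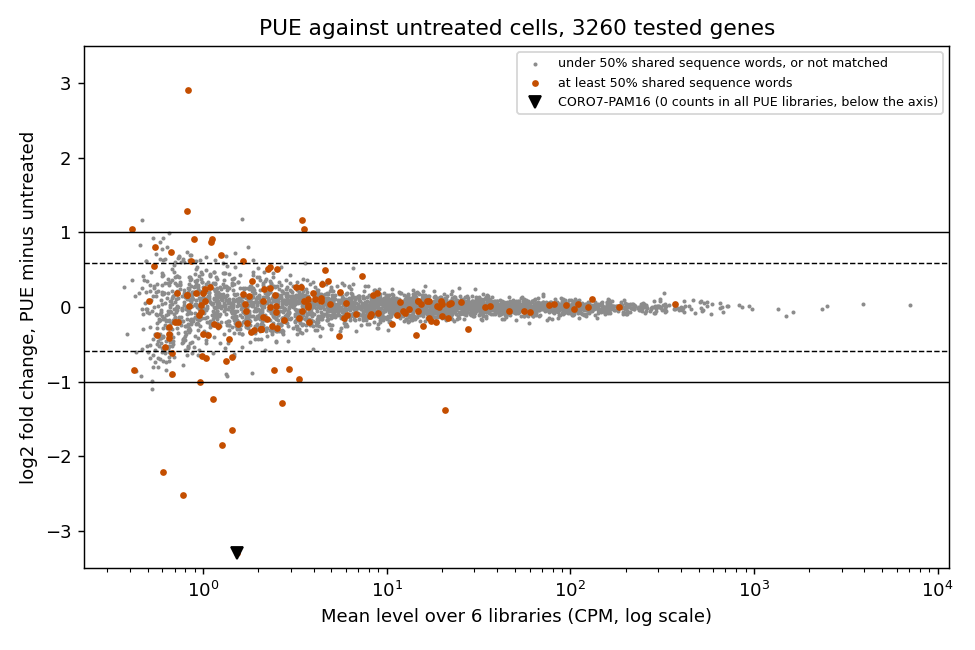
Log2 fold change (PUE minus untreated, paired edgeR fit) against the mean level over the 6 libraries in CPM, on a log axis, with 1 point for each of 3260 tested genes. Solid lines mark a 2-fold and dashed lines a 1.5-fold difference. Orange points are genes that share at least 50% of their transcript sequence words with other genes, and the triangle marks CORO7-PAM16, which was at 0 in all 3 PUE libraries and whose value lies below the axis. Above 10 CPM the points lie close to 0, with a median absolute log2 fold change of 0.04.

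The gene that passed was CORO7-PAM16 (gene ID 100529144), a read-through transcript that joins exons of the neighbouring genes CORO7 and PAM16. CORO7 encodes a coronin of the Golgi, and PAM16 a subunit of the mitochondrial protein import motor. Its level was 1.95, 3.68 and 3.55 CPM in untreated replicates 1, 2 and 3, and it was at 0 in all 3 PUE libraries. The groups did not overlap, and the untreated mean of 3.06 CPM was 19.8-fold the 3-count floor of 1 PUE library. That floor covers counting error and not the division of reads between genes, so it is no lower limit on the difference. The adjusted p was 0.000104 in the paired edgeR fit. It was 0.593 without the replicate block and 1.00 when all 12 libraries were fitted with the block, so the call rests on the replicate block in these 6 libraries. CORO7 and PAM16 themselves were not analysed here.

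Most bases of a read-through transcript also occur in a parent gene, so the reads that can tell it apart are those over the junction. Of the 3235 words of 50 bases in the CORO7-PAM16-202 transcript of GENCODE release 29, 47 (1.45%) occur in no transcript of another gene, and all of them span 1 exon junction. Over all transcripts of the gene, 97.0% of the words were shared. The junction windows are shown for this gene and for HSPE1-MOB4 and URGCP-MRPS24, other read-through genes that the authors marked in this comparison. They are reference sequences of the GRCh38 build, 5′ to 3′ on the transcript strand and within the coding sequence, with the exon shared with the second parent in capitals.
CORO7-PAM16: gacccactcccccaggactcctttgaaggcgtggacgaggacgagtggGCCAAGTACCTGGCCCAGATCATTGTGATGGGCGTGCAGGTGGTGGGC
HSPE1-MOB4: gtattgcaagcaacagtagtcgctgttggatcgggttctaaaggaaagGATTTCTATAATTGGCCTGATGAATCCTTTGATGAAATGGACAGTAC
URGCP-MRPS24: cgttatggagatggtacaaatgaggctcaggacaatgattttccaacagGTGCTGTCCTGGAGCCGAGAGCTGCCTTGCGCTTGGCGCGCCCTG
The first junction joins exons 27 and 28 of 31 on the minus strand of chromosome 16, from base 4355286 to base 4343291. In HSPE1-MOB4 it joins exons 2 and 3 of 9 on the plus strand of chromosome 2, from 197501238 to 197523624, and 46 of 841 words (5.47%) were the gene's own. URGCP-MRPS24 has its junction between exons 4 and 5 of 7 on the minus strand of chromosome 7, from 43881659 to 43869376, and 45 of 746 words (6.03%) were its own. The build and annotation behind the authors' counts are not given in these sources.

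The authors' deposited table marks 19 of the 3699 genes (0.514%) for PUE against untreated, 6 higher and 13 lower. They share much of their sequence with other genes, a feature that the marking did not use. Of the 19, 10 are read-through genes, and the others include near-identical copies such as PLGLB1 and PLGLB2, GOLGA8N and GOLGA8O, and ANKRD20A2. In the 16 that could be matched to GENCODE release 29, 64.2% to 98.3% of the words were shared with other genes (median 94.1%), against a median of 0.027% over 3568 matched genes of the table. None of the 19 had whole counts in all 6 libraries, and 18 had a 0 in at least 1 library. Their median level was 0.828 CPM, 12 had enough counts to test, 1 passed the paired edgeR test, and 6 had the same direction in all 3 pairs, leaving out OR2A42, which had 0 counts in both libraries of pair 2. For this comparison a q-value of 0.001 or lower stands beside 80 genes in the authors' deposited table, and 61 of those have a log2 ratio under 1 in size. The plot of the marked genes shows their levels library by library.

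**Figure D2:**
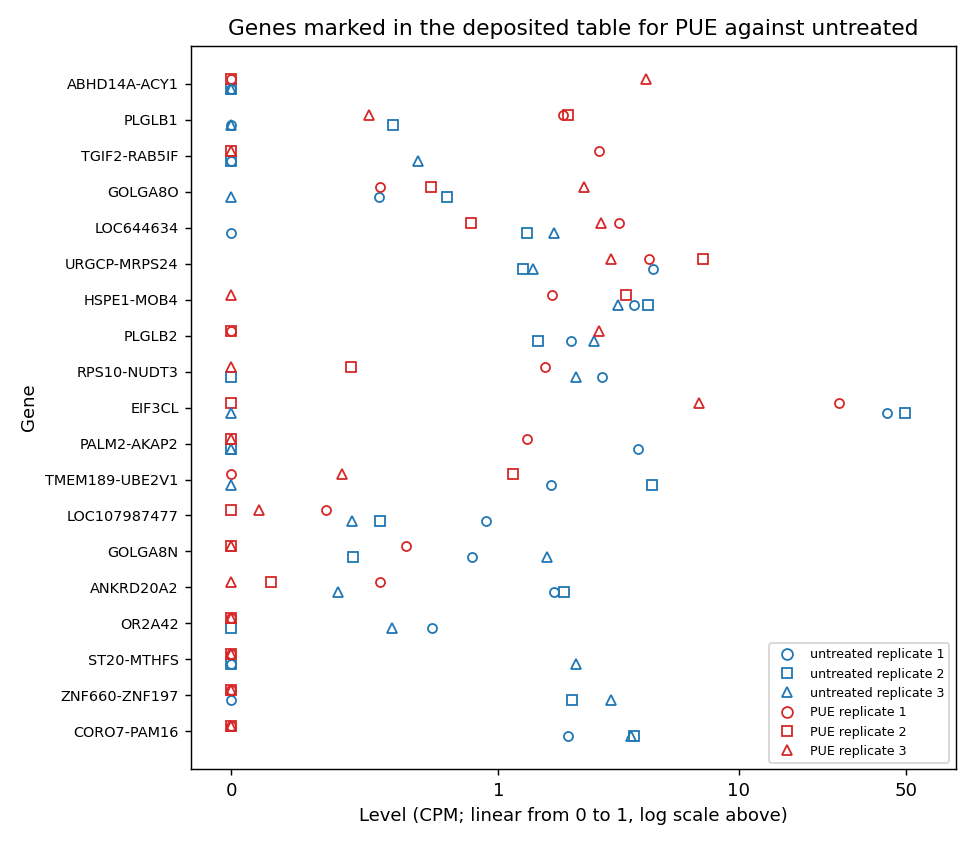
Level in CPM (linear from 0 to 1, log scale above) of the 19 genes that the authors' deposited table marks for PUE against untreated, with 1 symbol for each of the 6 libraries, coloured by group and shaped by replicate number. Most genes have a 0 in some library of both groups or of 1 group, and CORO7-PAM16 is at 0 in every PUE library.

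Libraries of 1 group differed among themselves in these genes as well. EIF3CL, a copy of the translation initiation factor gene EIF3C, was at 41.5, 49.5 and 0 CPM in untreated and at 26.1, 0 and 6.85 CPM in PUE replicates 1 to 3. Both groups thus span from 0 or near it to over 25 CPM, and the 95% interval of the log2 fold change ran from −8.999 to 6.23. HSPE1-MOB4 was at 3.66, 4.19 and 3.15 CPM in untreated and 1.66, 3.39 and 0 CPM in PUE libraries. It was lower in all 3 pairs, with log2 ratios of −1.09, −0.30 and −4.98, while replicate 2 of PUE lay within the untreated range. URGCP-MRPS24 was at 4.41, 1.26 and 1.40 CPM in untreated and 4.24, 7.08 and 2.94 CPM in PUE libraries. In the first pair the PUE library was slightly lower, and the groups overlapped. ZNF660-ZNF197 was at 0, 2.02 and 2.95 CPM in untreated libraries and at 0 in all PUE libraries, and had too few counts to test. Where the parent genes of marked read-through genes are in the table, their log2 fold changes were −0.23 for PALM2, 0.02 for AKAP2 and 0.03 for ABHD14A, and none passed the test.

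Some near-identical copies differed in opposite directions between the groups. The group means of their sums differed less, while single pairs still differed. PLGLB1 and PLGLB2 encode near-identical plasminogen-related proteins. PLGLB1 was at 0, 0.606 and 0 CPM in untreated and 1.87, 1.95 and 0.515 CPM in PUE libraries. PLGLB2 was at 2.00, 1.46 and 2.50 CPM in untreated and 0, 0 and 2.63 CPM in PUE libraries. The sum of the pair was 2.03, 2.09 and 2.51 CPM in untreated and 1.88, 1.97 and 3.17 CPM in PUE libraries, with log2 ratios of −0.10, −0.08 and 0.33 in the 3 pairs. GOLGA8N and GOLGA8O, golgin copies marked in opposite directions, summed to 1.48, 1.27 and 1.60 CPM in untreated and 1.23, 0.743 and 2.28 CPM in PUE libraries. Those ranges overlap, and the log2 ratios were −0.25, −0.70 and 0.49. ANKRD20A2 and ANKRD20A4 summed to 1.69, 3.27 and 1.42 CPM in untreated and 2.11, 1.52 and 1.40 CPM in PUE libraries. Their log2 ratios were 0.31, −1.06 and −0.02. Over the tested genes, 157 shared at least 50% of their words. Among them 10.8% had an unadjusted p under 0.05 and the median absolute log2 fold change was 0.19, against 4.07% and 0.07 in the 3020 genes that shared less. The former set was also less abundant, with a median of 2.52 against 11.8 CPM. Between 1 and 10 CPM the shares with an unadjusted p under 0.05 were 10.98% of 82 and 3.63% of 1103 genes. At 10 CPM or more they were 7.14% of 42 genes, which is 3 genes, and 4.49% of 1604. How the authors' counting divided reads between such genes was not tested.

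The intervals give the sizes of difference that the paired edgeR fit allows for each gene, and their widths depend on the block and the tool. The 95% interval lay wholly within a 2-fold difference for 2978 of 3260 genes (91.3%) and within a 1.5-fold difference for 2409 (73.9%). Among 339 genes of at least 100 CPM, all were bounded within 1.5-fold and no log2 fold change exceeded 0.19 in size. Of 1651 genes of at least 10 CPM, 1648 (99.8%) were bounded within 1.5-fold, and 95% of them had an absolute log2 fold change of up to 0.15. The exceptions were EIF3CL, C7orf55-LUC7L2, another read-through gene, and LTB4R, a leukotriene B4 receptor. Between 1 and 10 CPM, 1168 of 1234 genes (94.7%) were bounded within 2-fold and 761 (61.7%) within 1.5-fold. Below 1 CPM, 160 of 375 were bounded within 2-fold and 0 within 1.5-fold, so that smaller differences were not detectable at this depth. Without the replicate block 2335 genes were bounded within 2-fold and 1247 within 1.5-fold. Of the 1651 genes of at least 10 CPM, 1054 were then bounded within 1.5-fold, and of the 339 of at least 100 CPM, 241. DESeq2 with the block bounded 2502 of the 3260 genes within 2-fold. The median SE was 0.099 with the block and 0.25 without it.

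The spread between libraries differed with the replicate number. Over the 1651 genes of at least 10 CPM, the log2 ratio of PUE over untreated had an SD of 0.111, 0.255 and 0.197 in pairs 1, 2 and 3, and 1, 3 and 4 genes differed by more than 1.5-fold. Untreated replicates 1 and 2 differed from each other with an SD of 0.124, and 5 genes passed 1.5-fold. PUE replicates 1 and 2 differed with an SD of 0.225, and 3 genes passed it. Replicate 3 differed from replicates 1 and 2 of its own group with an SD of 0.583 to 0.638, and 26.8% to 29.9% of the genes passed 1.5-fold. All 3 pairs of PUE and untreated libraries were nearer to each other than replicate 3 was to the rest of its group. Pair 1 had a smaller SD than untreated replicates 1 and 2 had between them, and pairs 2 and 3 had a larger one. PUE replicates 1 and 2 had a larger SD than pair 3 and a smaller one than pair 2. The gene EIF3CL, with log2 ratios of −8.96 in pair 2 and 6.12 in pair 3, weighs heavily on the SDs of those pairs. The interquartile range, which 1 gene hardly moves, was 0.126, 0.155 and 0.150 in pairs 1, 2 and 3. It was 0.138 between untreated replicates 1 and 2 and 0.114 between PUE replicates 1 and 2.

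**Figure D3:**
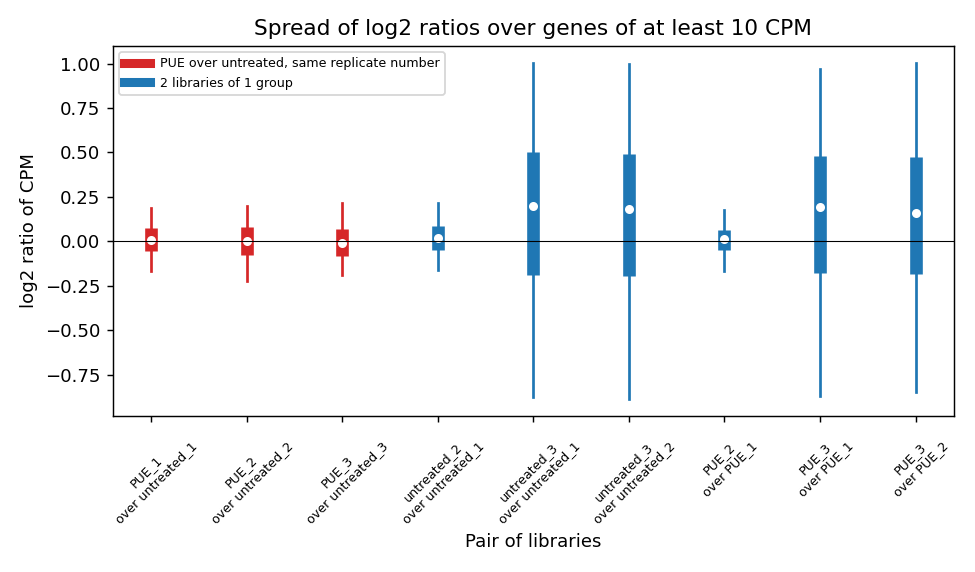
Log2 ratio of CPM between pairs of libraries over 1651 genes of at least 10 CPM. White dots are medians, thick bars the middle 50% and thin lines the middle 90% of genes. The ratios of PUE over untreated at the same replicate number (red) span about the range seen between replicates 1 and 2 of a group (blue), and those between replicate 3 and the others of its group (blue) are wider, with an SD of 0.583 to 0.638.

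The 3 pairs share no library, so their directions can be compared gene by gene. Genes without any difference also fall in 1 direction in all 3 pairs in part of the cases. A single direction, for a gene or as a count, therefore does not by itself show a response. A single direction in all 3 pairs was seen in 819 of 3260 genes (25.1%), 411 higher and 408 lower in PUE libraries, of which 1 gene had a pair with 0 counts in both libraries. At a size of at least 1.5-fold in every pair, 2 genes were higher and 5 lower, and of those 1 and 2 reached 2-fold. The 7 genes were CORO7-PAM16, PLGLB1, ANKRD20A2, PWP2, GALNT9, ARHGAP25 and LOC112268437, and none reached a mean of 10 CPM. In 801 genes of at least 10 CPM with whole counts, the ratios of pairs 1 and 2 correlated across genes with r = 0.25 (rho = 0.26). The same correlation was 0.05 for pairs 1 and 3 (rho = 0.06) and −0.22 for pairs 2 and 3 (rho = −0.23). Over all 1651 genes of at least 10 CPM, fractional counts included, r was 0.24, −0.10 and −0.73 and rho 0.23, 0.01 and −0.22 in the same order. EIF3CL, with log2 ratios of −8.96 in pair 2 and 6.12 in pair 3, weighs heavily on that r and little on rho. The r of −0.73 is therefore no measure of how genes in general behaved. Genes are not independent replicates, and these values describe the libraries only.

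Wnt pathway genes were at like levels in PUE and untreated cells. Of 38 listed Wnt targets, 28 were in the table and tested, and none passed. The median log2 fold change was −0.02 (range −0.20 to 0.12), against 0.01 over all tested genes. All 28 were bounded within 1.5-fold, against 73.9% of all tested genes and 99.8% of those of at least 10 CPM. Of the 28, 23 reached that level. Without the block the intervals were wider, −0.25 to 0.29 for AXIN2, −2.29 to 2.08 for DKK4 and −1.88 to 2.11 for LGR5. AXIN2, a target that feeds back as a scaffold of the degradation complex, was at 530, 568 and 554 CPM in untreated and 534, 540 and 602 CPM in PUE libraries. The groups overlapped, and the log2 fold change of 0.02 had a 95% interval from −0.07 to 0.11. MYC, the growth regulator, was at 352, 371 and 514 CPM in untreated and 352, 373 and 484 CPM in PUE libraries (−0.03, interval −0.11 to 0.06). In both groups replicate 3 was the highest, and replicates 1 and 2 differed little from their partners. CCND1, encoding cyclin D1, was at 1748, 1818 and 1486 CPM in untreated and 1644, 1661 and 1493 CPM in PUE libraries, lower in pairs 1 and 2 and level in pair 3. Its log2 fold change of −0.07 had an interval from −0.15 to 0.01.

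LGR5, an R-spondin receptor and intestinal stem cell marker, was at 1.35, 1.11 and 5.20 CPM in untreated and 1.36, 1.30 and 5.67 CPM in PUE libraries. Its level followed the replicate number rather than the group, and the interval of its log2 fold change, −0.27 to 0.51, was the widest among the named targets. The secreted Wnt antagonists DKK1 and DKK4 had negative log2 fold changes without passing the test. In pairs 1 to 3 the log2 ratios were −0.27, −0.31 and −0.00576 for DKK1 and −0.03, −0.50 and −0.04 for DKK4. DKK1 was at 9.12, 9.49 and 8.75 CPM in untreated and 7.57, 7.63 and 8.71 CPM in PUE libraries, with every PUE library below every untreated one (−0.20, interval −0.42 to 0.03, adjusted p = 0.972 in edgeR). DKK4 was at 14.5, 16.3 and 70.6 CPM in untreated and 14.2, 11.5 and 68.6 CPM in PUE libraries (−0.15, interval −0.34 to 0.03). The transcription factor SP5 and the ubiquitin ligase RNF43, which removes Frizzled receptors, had log2 fold changes of −0.04 and −0.02. SOX4, a transcription factor, was the 1 target with an unadjusted p under 0.05. It was at 39.0, 44.9 and 55.1 CPM in untreated and 36.2, 39.2 and 52.1 CPM in PUE libraries (−0.13, interval −0.24 to −0.01), and is named after its values were seen.

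**Figure D4:**
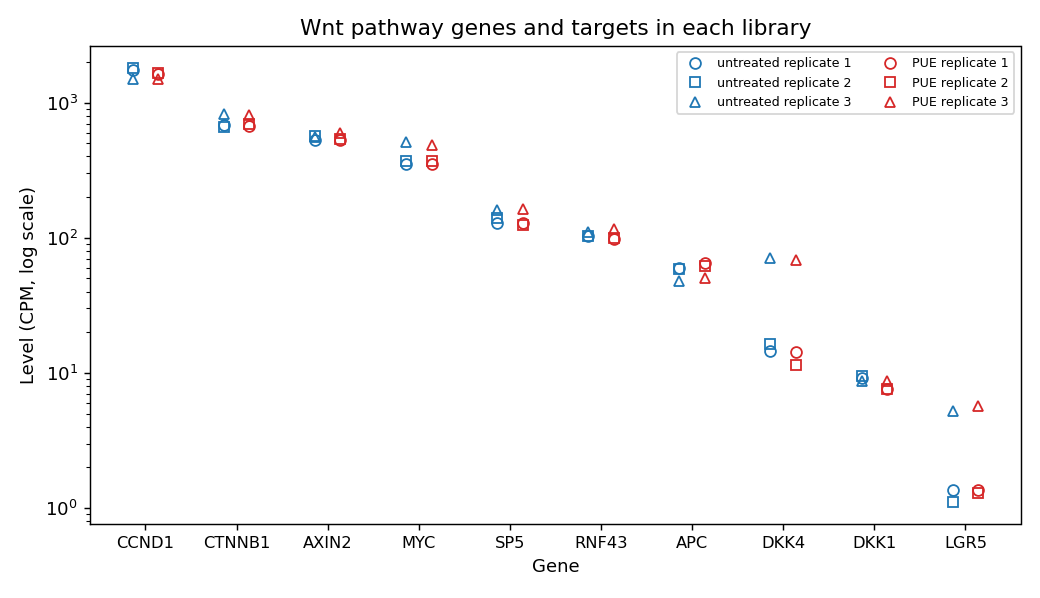
Level in CPM (log axis) of 10 Wnt pathway genes and targets in each of the 6 libraries, untreated in blue and PUE in red, with the symbol shape giving the replicate number. Symbols of the same shape lie at nearly the same height in both groups, and DKK4 and LGR5 differ between replicate 3 and the others by more than between the groups.

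Of 43 core components of the pathway, 19 were in the table and tested, none passed, 17 were bounded within 1.5-fold, and the median log2 fold change was 0.03. CTNNB1 was at 680, 666 and 821 CPM in untreated and 677, 700 and 805 CPM in PUE libraries, and its log2 fold change of 0.01 had an interval from −0.07 to 0.09. APC was at 59.4, 58.6 and 47.9 CPM in untreated and 65.2, 61.4 and 50.04 CPM in PUE libraries. It was higher in all 3 pairs, although the groups overlapped, and its interval ran from −0.01 to 0.19. The ligand WNT5A (0.03), the signal transducer DVL1 (0.03) and the co-repressor TLE3 (0.00) had log2 fold changes near 0. The 2 components not bounded within 1.5-fold were the Frizzled receptors FZD8 (0.32, interval −0.05 to 0.68) and FZD10 (0.17, interval −0.40 to 0.75), both with few counts.

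NRF2 targets had the highest median log2 fold change among the 20 pathway lists, 0.11 in 9 tested members of 25 listed, and none passed the adjusted threshold. In 4 of the 9 the unadjusted p in the paired edgeR fit was under 0.05 with PUE higher, against 2.21% of all tested genes. The list stands out by these same values, so that share is a description and not a test. TXNRD1, the cytosolic thioredoxin reductase, was at 330, 334 and 243 CPM in untreated and 389, 407 and 250 CPM in PUE libraries. It was higher in all 3 pairs, with log2 ratios of 0.24, 0.28 and 0.04, and its log2 fold change of 0.19 (SE 0.048, adjusted p = 0.792 in edgeR) had an interval from 0.09 to 0.29. Without pair 3 the log2 fold change was 0.26 and the adjusted p in edgeR was 0.0449. Without pair 1 these were 0.17 and 1.00, and without pair 2 they were 0.14 and 0.347. OSGIN1, an oxidative stress-induced growth inhibitor, was at 37.4, 37.2 and 10.00 CPM in untreated and 40.9, 42.5 and 14.4 CPM in PUE libraries, higher in all 3 pairs (0.24, interval 0.07 to 0.40). In OSGIN1 pair 3 had the largest of the 3 ratios, 0.52, and the groups overlapped because replicate 3 was low in both. Without the replicate block the intervals included 0, at −0.35 to 0.76 for TXNRD1 and −1.24 to 1.65 for OSGIN1.

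In 6 of the other 7 NRF2 targets the PUE library was higher in pairs 1 and 2 and lower in pair 3. GCLC, the catalytic subunit of glutamate-cysteine ligase, was at 67.7, 69.7 and 64.6 CPM in untreated and 83.0, 80.2 and 62.7 CPM in PUE libraries (0.15, interval 0.02 to 0.29). SLC7A11, the cystine transporter, was at 33.0, 30.9 and 35.7 CPM in untreated and 40.4, 36.7 and 34.4 CPM in PUE libraries (0.16, interval 0.01 to 0.32). In both genes the difference in pair 3 was the smallest in size. HMOX1, heme oxygenase 1, was at 20.9, 22.6 and 9.40 CPM in untreated and 23.9, 26.6 and 7.01 CPM in PUE libraries (0.07, interval −0.16 to 0.30). GCLM, the modifier subunit of the ligase, and SRXN1, sulfiredoxin, had log2 fold changes of 0.10 and 0.11, and FTH1, ferritin heavy chain, 0.02. AKR1C1, an aldo-keto reductase, was lower in all 3 pairs and the 1 member with a negative log2 fold change, −0.58 (interval −1.37 to 0.20), at 1.06 CPM or less in every library. The median log2 ratio of the 9 genes was 0.19 in pair 1, 0.20 in pair 2 and −0.04 in pair 3. Over all tested genes the pair medians lay between −0.00416 and 0.00947.

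**Figure D5:**
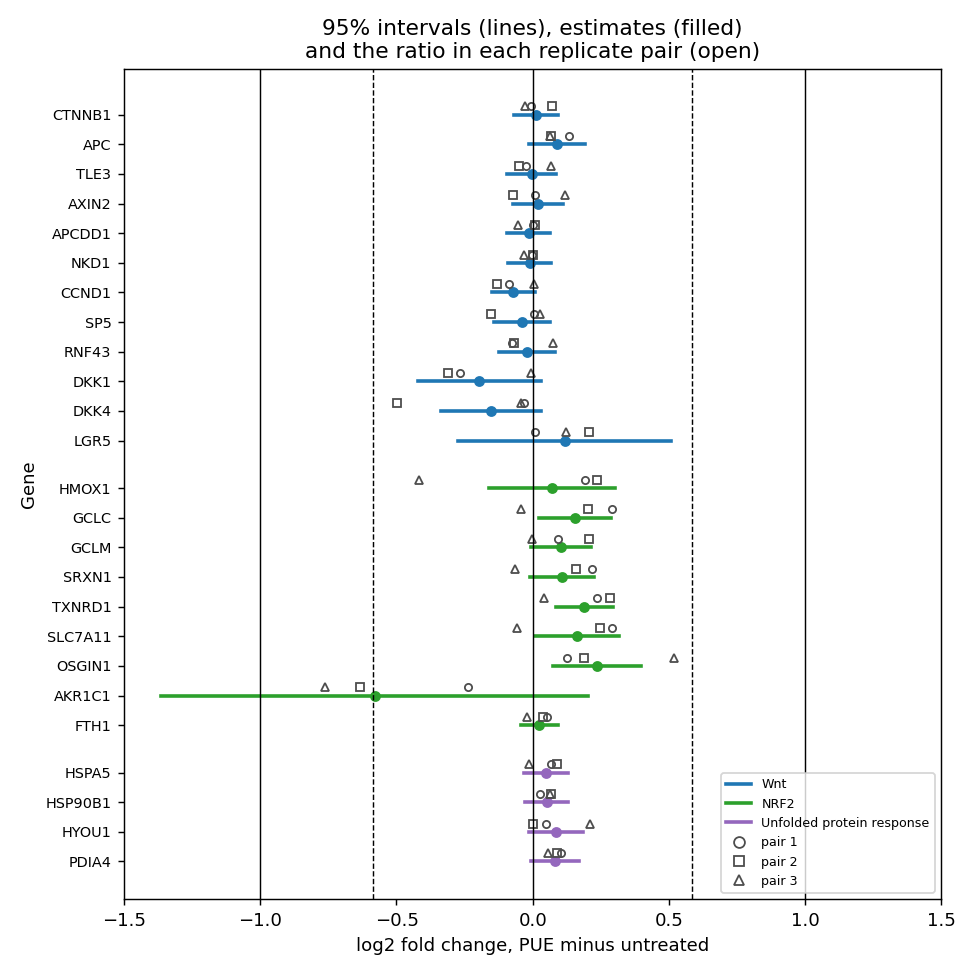
Log2 fold change (PUE minus untreated) with its 95% interval from the paired edgeR fit (filled dot and line) and the log2 ratio in each replicate pair (open symbols) for 12 Wnt pathway genes, 9 NRF2 targets and 4 unfolded protein response genes. Solid vertical lines mark a 2-fold difference and 0, dashed lines 1.5-fold. Wnt genes are spread on both sides of 0, and in most NRF2 targets the circle and square (pairs 1 and 2) lie to the right of the triangle (pair 3).

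Stress and growth programmes other than NRF2 showed no called member either. Across the 24 lists, 208 distinct members were tested, 0 passed in edgeR with the block, 204 were bounded within 2-fold and 194 within 1.5-fold. Over all tested genes these shares were 91.3% and 73.9%, and 168 of the 208 members had a mean of at least 10 CPM. For the 20 pathway lists the medians ran from −0.04 to 0.11. The unfolded protein response had a median of 0.05 in 12 tested members, all bounded within 1.5-fold. Its chaperone HSPA5 was at 652, 645 and 636 CPM in untreated and 684, 687 and 630 CPM in PUE libraries (0.05, interval −0.04 to 0.13). HSP90B1 (0.05), HYOU1 (0.09) and PDIA4 (0.08), further chaperones of the endoplasmic reticulum, had positive values with intervals that included 0. ATF4 targets had a median of 0.02 in 16 members and heat shock genes 0.03 in 6, again all bounded within 1.5-fold.

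Cell cycle genes were close to 0. The 20 tested G1 to S genes had a median of −0.00201 and the 24 tested G2 to M genes −0.00578, and all were bounded within 1.5-fold. MKI67, a proliferation marker, was at 482, 415 and 349 CPM in untreated and 468, 400 and 363 CPM in PUE libraries (−0.01). TOP2A, the topoisomerase of dividing cells, was at 478, 448 and 431 CPM in untreated and 488, 465 and 493 CPM in PUE libraries, higher in all 3 pairs by a log2 fold change of 0.09 (unadjusted p = 0.0467, adjusted p = 0.972 in edgeR). The 10 tested p53 targets were all bounded within 1.5-fold with a median of 0.00231, and CDKN1A, the cell cycle inhibitor p21, had −0.03 (interval −0.13 to 0.07). Of the apoptosis regulators, 4 were tested. BCL2, which protects from apoptosis, was at 3.76, 3.33 and 3.80 CPM in untreated and 2.37, 2.89 and 3.20 CPM in PUE libraries, and the groups did not overlap (−0.37, interval −0.72 to −0.01, adjusted p = 0.972 in edgeR). In a bulk culture fewer cells of a kind and less RNA per cell cannot be told apart.

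Some other lists held 1 or 2 members with an unadjusted p under 0.05, against 4.51% of all tested genes. UGT1A6, a glucuronosyltransferase on the list of aryl hydrocarbon receptor targets, was at 17.0, 16.8 and 16.7 CPM in untreated and 17.7, 20.6 and 20.3 CPM in PUE libraries, without overlap (0.21, interval 0.04 to 0.38). It shared 41.6% of its words with other genes, and CYP1A1, the classic target of that receptor, had −0.02 (interval −0.38 to 0.34). SLC2A3, a glucose transporter, was at 1524, 1554 and 1607 CPM in untreated and 1308, 1394 and 1623 CPM in PUE libraries, lower in pairs 1 and 2 only (−0.12, interval −0.22 to −0.03). NDRG1, a hypoxia-induced gene, was at 120, 118 and 186 CPM in untreated and 111, 107 and 179 CPM in PUE libraries, lower in all 3 pairs (−0.10). DUSP6, a phosphatase of ERK, was at 210, 215 and 177 CPM in untreated and 198, 202 and 163 CPM in PUE libraries, also lower in all 3 pairs (−0.09). Among oestrogen receptor targets, 4 were tested and none had an unadjusted p under 0.05, with IGFBP4 at −0.06 and XBP1 at −0.09. ESR2, oestrogen receptor beta, lay near 1 CPM, and its interval of −0.13 to 1.14 reached past a 2-fold difference. Interferon-stimulated genes had a median of 0.09 in 10 tested members, of which 6 were bounded within 1.5-fold, and the median was −0.00727 without replicate 1. The lists of NF-kB, metallothionein, sterol synthesis and YAP genes had medians between −0.04 and 0.02 with 4 to 6 tested members each. Without replicate 3 the sterol median was 0.17.

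The smallest p-values among genes of at least 2 CPM with 1 direction in all pairs give the leading candidates in each direction, and none of these 20 genes passed the adjusted threshold. Of the 20, 10 had fractional counts, and 5 of the 18 that matched GENCODE release 29 shared at least 50% of their words. Beside TXNRD1 and OSGIN1, the higher genes with whole counts were CAPRIN2, HOXA3, ADAM8 and CABLES1. CAPRIN2, an RNA-binding protein that has also been linked to Wnt receptor signalling, was at 21.6, 23.4 and 22.4 CPM in untreated and 24.3, 27.4 and 28.8 CPM in PUE libraries, without overlap (0.25, interval 0.11 to 0.40, adjusted p = 0.792 in edgeR). CABLES1, a regulator of cyclin-dependent kinases, was at 14.2, 13.9 and 15.4 CPM in untreated and 16.5, 16.6 and 17.5 CPM in PUE libraries, also without overlap (0.22). ADAM8, a metalloprotease, had 0.54 and HOXA3, a homeobox factor, 0.21. FAM111A, a protease that acts at replication forks, had 0.17, and NOTCH2NLB, NPIPB2 and the read-through C8orf44-SGK3, all with near-identical copies or parents elsewhere, had 0.53, 0.49 and 0.59.

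On the lower side, PWP2, a ribosome biogenesis factor, had the smallest p of the 10. It was at 2.15, 4.64 and 6.40 CPM in untreated and 1.21, 1.85 and 3.76 CPM in PUE libraries (−0.97, interval −1.34 to −0.59, adjusted p = 0.184 in edgeR), and 88.2% of its words were shared with other genes. RGCC, a cell cycle regulator, was at 40.5, 40.2 and 112 CPM in untreated and 33.5, 37.6 and 93.8 CPM in PUE libraries (−0.21, interval −0.33 to −0.10). IGFBP3, which binds insulin-like growth factors, was at 86.5, 86.7 and 78.8 CPM in untreated and 78.1, 78.5 and 69.8 CPM in PUE libraries, and every PUE library was below every untreated one (−0.15, interval −0.25 to −0.06). The orphan receptor GPRC5A (−0.17), the protease BACE2 (−0.15), the neurotrophin receptor NTRK2 (−0.17), VAT1L (−0.56) and the glucuronosyltransferase UGT1A4 (−0.84) were also among the lower genes. A single direction in all 3 pairs was a condition of choosing the candidates, so it is not a result about them. FAM72A had −0.30, while the sum of the 4 copies FAM72A to FAM72D was 60.8, 59.0 and 80.1 CPM in untreated and 55.7, 56.8 and 74.1 CPM in PUE libraries, with log2 ratios between −0.13 and −0.05.

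The study crossed PUE with GLY, and the difference made by PUE could be compared with and without GLY. Since GLY replicates 2 and 3 are labelled with 13 and 14 h and every GLY_PUE library with 12 h, PUE and labelled duration cannot be told apart under GLY. Over all 12 libraries, 0 of 3429 genes (0%) passed edgeR's test of the interaction with the block, 58 (1.69%) had an unadjusted p under 0.05, and DESeq2 and limma-voom called 0 as well. Across 1651 genes of at least 10 CPM, the PUE difference under GLY and that without it, which share no library, correlated with r = 0.24 (rho = 0.22), as a description across genes. CORO7-PAM16 was at 0 in the 3 GLY libraries and at 0, 2.34 and 0 CPM in GLY_PUE replicates 1 to 3. Its level under GLY with PUE thus rests on 1 library, and its interaction, of the opposite sign to its PUE difference, had an unadjusted p of 0.00336 and an adjusted p of 0.975 in edgeR. TXNRD1 had a log2 fold change of 0.27 (SE 0.339) for GLY with PUE against GLY, GCLC 0.30 (SE 0.389) and OSGIN1 −0.19 (SE 0.310), and of the 9 NRF2 targets 5 were positive and 4 negative there, with a median of 0.14 against 0.13 over 3260 genes. In the same fit of 12 libraries the SE without GLY was 0.334 for TXNRD1, 0.384 for GCLC and 0.311 for OSGIN1, so that this fit could not detect differences of their size on either background.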

How the data were processed

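RNA of 12 SW480 libraries was sequenced on BGISEQ-500, per the labels' protocols. One table of 3699 genes was used. Its estimated counts, deposited by the authors, are reads assigned to genes without normalization, per the file headers, and 57.7% of those in the 6 libraries were whole. A gene was taken to have whole counts if its counts in all 6 libraries were whole within a tolerance of 0.005. Its expression values, deposited by the authors with no unit named, behave as FPKM. Its log2 ratios, p-values and q-values are the authors' own comparisons, per the file headers. The submitters' processing notes name TopHat and DESeq 1.32.0 without saying what each did, and which tool, build or annotation made the counts is not given in the sources used here.

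The count divided by the FPKM gave relative totals of the libraries, over 625 genes (at least 100 counts, FPKM of at least 5) scaled with the lengths of 39 genes with a single GENCODE release 29 transcript, giving 19.96 M reads for untreated replicate 1 (95% interval 19.4 to 20.0). Rounded counts that passed filterByExpr were fitted by edgeR 4.0.16 under R 4.3.3 (robust quasi-likelihood fit, recovered totals, replicate block, Benjamini-Hochberg over all 3260 genes tested). SEs came from the log2 fold change and F, and pair ratios used a prior count of 2. Libraries were paired by replicate number. Within numbers, deviations from group means correlated at 0.928, 0.538 and 0.866 over 1651 genes. Between replicate 3 of a group and the other numbers of the other group the correlations were −0.938 to −0.568. Untreated replicate 2 correlated better with PUE replicate 1 (0.872), and PUE replicate 2 better with untreated replicate 1 (0.552). The check thus sets replicate 3 apart and cannot settle the pairing of numbers 1 and 2. Shared sequence is the percentage of 50-base words of a gene's GENCODE transcripts that occur in another gene. Between replicates of a group the median chi-square per gene was 0.690 to 31.3, above sampling noise, and none was counted as a duplicate. The fit was also run on simulated counts that kept the replicate structure and had no division of reads between genes. That run therefore does not test the replicate block or such divided counts. Alternatives were TMM and RLE scaling, other filters, no block, all 12 libraries, DESeq2 1.42.0, limma-voom (limma 3.58.1), no robust estimation, and leaving out each replicate. Floors cover counting error only.

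Named genes are those called, the 10 with the smallest p in each direction (mean of at least 2 CPM, 1 direction in all pairs), those the authors mark, the 4 most abundant tested members of each list, 10 Wnt genes, and parents of read-through genes. Genes outside that rule, such as SOX4, the Frizzled receptors, the NRF2 targets beyond the 4 most abundant, LTB4R, and the genes past 1.5-fold in all pairs, were named after their values were seen. The comparison and gene lists were chosen with earlier results of these data known.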

Additional observations from a re-analysis of the deposited data

How the results depend on the processing

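The replicate block decides the precision. Without it 0 genes changed in place of 1, and CORO7-PAM16 kept a log2 fold change of −8.93 with an adjusted p of 0.593 in edgeR. Fits on all 12 libraries also gave 0, with the block (19 at an unadjusted p under 0.05) and without it (12). Without a filter on low counts 3 genes passed, and with a minimum mean of 10 CPM 0 passed (75 at an unadjusted p under 0.05). TMM and RLE scaling, DESeq2, limma-voom, no robust estimation and a block of number 3 against the others, chosen after seeing the data, each called 1. An unadjusted p under 0.05 was found for 22 genes in DESeq2 and 135 in limma-voom, against 147 in edgeR. Leaving out a replicate pair gave 2 to 23 changed genes: 2 without replicate 1, 23 without replicate 2 and 3 without replicate 3. Of the 23, 13 shared at least 50% of their words. The minimum of 10 CPM left 1650 of 1651 genes bounded within 2-fold and 407 of 1651 with 1 direction in all pairs. The direction count was 1472 to 1813 over the remaining 2 pairs when 1 was left out, since fewer pairs have to agree, and 2739 to 2827 genes were then bounded. List members called were 0 to 1 (TXNRD1, without replicate 3). The interaction gave 0 to 1, the 1 being LIMS3 without GLY_PUE replicate 2, a gene with 99.2% shared words. Of 280 list medians under alternatives, 9 moved by more than their spread over pairs: oestrogen receptor targets to −0.06 without a filter and −0.07 at 10 CPM, heat shock genes to 0.02 with RLE and without replicate 3, p53 targets to −0.05 without replicate 1, G1 to S genes to −0.04 and sterol genes to 0.17 without replicate 3, and interferon-stimulated genes to −0.08 at 10 CPM and −0.00727 without replicate 1. No direction reversed among the named genes with an unadjusted p under 0.05. Depth limits genes below 1 CPM, and the table limits every count to genes the authors selected.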
